A study of Mus musculus with 12 samples.

Results

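The cluster of miR-302 and miR-367 was represented by 9 of the 504 microRNAs measured, chosen by name alone as every assay for miR-302a, miR-302b, miR-302c, miR-302d or miR-367 on either arm. The members were mmu-miR-302a-3p, both arms of miR-302b, miR-302c and miR-302d, mmu-miR-367-5p and an assay listed as mmu-miR-367, taken here as the 3p arm because the 5p arm has a row of its own. Quantitative PCR was run on RNA of epididymal fat, a visceral depot, from male C57BL/6J wild-type mice killed at 23 weeks. Control mice (CD) were fed a purified diet with 10% of its energy as fat. A diet with 45% reached the group UT in utero through the dam and the group UL from mating until weaning. The group WL had it from mating to the end. All 3 groups thus shared the exposure in utero, and WL alone was on this diet at the end. All parents ate a standard breeding diet before mating. Each group had 3 pools drawn from 12 mice, and nothing in the labels says which litters entered a pool, so p-values measure the spread between these pools.

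In mammals the cluster is transcribed as 1 primary RNA that is cut into 5 hairpins, and each hairpin can release a 5p and a 3p strand. Its products are a hallmark of pluripotent cells: the miR-302 3p strands are known to repress inhibitors of the cell cycle and of Nodal signalling, and the cluster is used to reprogram fibroblasts. The related miR-290 to miR-295 cluster is the other abundant stem cell cluster of the mouse, and in adult tissues both are known to be mostly silent. A microRNA recognises its targets mainly through the seed, bases 2 to 8 from the 5′ end. The 5p strands of miR-302 are usually the less abundant ones.

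All 5 hairpins lie on the plus strand of chromosome 3 in RefSeq's annotation of GRCm38.p6, in the order Mir302b (chr3:127545228-127545301), Mir302c (chr3:127545363-127545430), Mir302a (chr3:127545496-127545564), Mir302d (chr3:127545624-127545689) and Mir367 (chr3:127545733-127545807). They span 580 bases, and all 5 lie within the gene Larp7 (chr3:127536714-127553349), which is on the minus strand. Exons and introns of Larp7 were not analysed here.

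RefSeq's mature sequences were matched to 8 of the 9 members. They are shown because the seed divides them into the microRNA families by which the results below are ordered, and because near-identical strands could be read by each other's assays. The seed, bases 2 to 8, is in capitals.
mmu-miR-302b-3p: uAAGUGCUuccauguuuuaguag
mmu-miR-302d-3p: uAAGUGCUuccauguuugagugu
mmu-miR-302c-3p: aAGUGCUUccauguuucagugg
mmu-miR-302b-5p: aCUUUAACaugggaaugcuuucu
mmu-miR-302c-5p: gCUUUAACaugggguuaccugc
mmu-miR-302d-5p: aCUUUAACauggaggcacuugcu
mmu-miR-367: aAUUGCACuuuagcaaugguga
mmu-miR-367-5p: aCUGUUGCuaacaugcaacuc

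The 3p strands of miR-302b and miR-302d share the seed AAGUGCU, and that of miR-302c begins with the same letters, because its RefSeq entry starts 1 base later in the shared stretch. Aligned on that stretch, the 3p strands of miR-302b and miR-302d were alike at 20 of 23 bases, and miR-302c was alike to each at 20 of 22. The 5p strands share the seed CUUUAAC and differ more: 16 of 22 bases were alike between miR-302b and miR-302c, 17 of 23 between miR-302b and miR-302d, and 17 of 22 between miR-302c and miR-302d. The sources used here do not say how far each assay tells such strands apart. MiR-367 has the seed AUUGCAC, which belongs to the miR-92 family.

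The unit is the threshold cycle (Ct), the PCR cycle at which the signal crosses a threshold, so a later Ct stands for less template. Over the 12 pools, 492 to 506 assays gave a value, the median Ct was 24.62 to 25.29, and single values ran from 15.06 to 37.04. MicroRNAs known to be abundant in fat crossed early: the 13 of 15 listed that were measured had mean Ct values of 16.38 to 25.11, with a median of 18.19. An epithelial list had mean Ct values of 21.38 to 22.77, with a median of 21.75. A testis and epididymis list ran from 20.17 to 29.02, with a median of 25.45. By median the fat list was the earliest of these lists, but its range overlapped that of each other list. No other tissue was measured beside it, so early values of the fat list alone do not identify the tissue.

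Most members crossed the threshold late. Of the 504 microRNAs, miR-367-5p had the 2nd latest mean Ct at 34 and miR-302b-3p the 5th latest at 33.21 (10 pools). They were followed by miR-302b-5p at 32.18, miR-367 at 31.97 (11 pools), miR-302d-3p at 30.77, miR-302a-3p at 30.74, miR-302c-3p at 29.53 and miR-302c-5p at 29.16. MiR-302d-5p stood apart at 25.89, and 59.1% of microRNAs were earlier than it. Assays may amplify unequally, so this is an order of cycles and not of amounts. Neighbours in it differ by less than the SD within groups in several cases, such as miR-302d-3p (SD 1.38) and miR-302a-3p (SD 0.53).

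**Figure D1:**
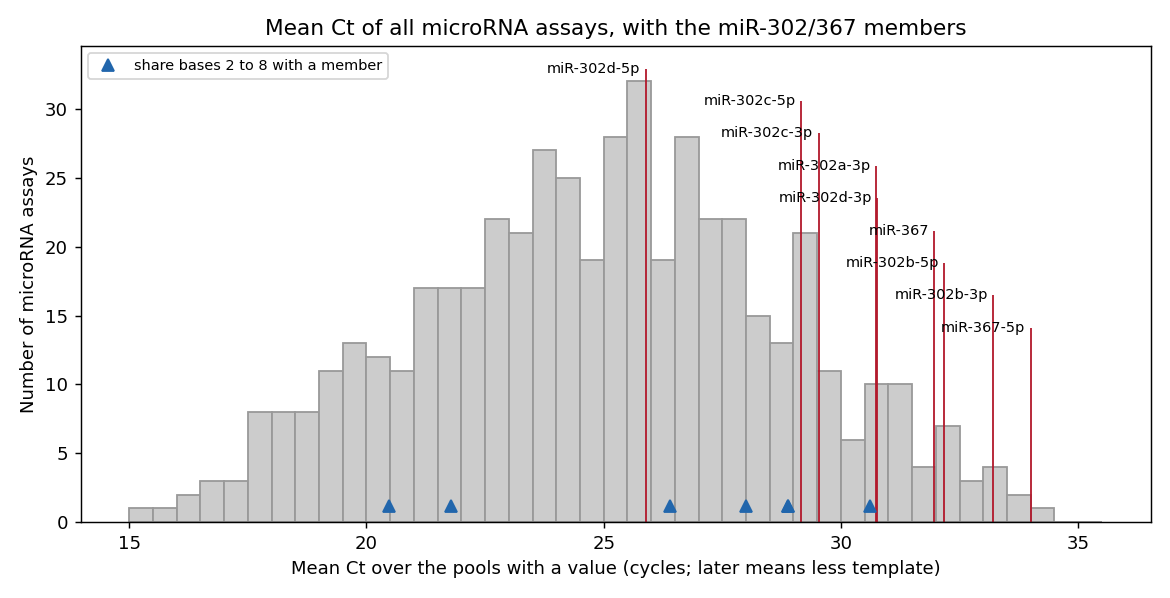
The histogram counts microRNAs (y axis) by their mean Ct in cycles (x axis, later to the right) for all 504 assays, with vertical lines at the 9 members. Of the members, 8 lie between 29.16 and 34 in the late tail, and miR-302d-5p lies at 25.89 near the middle.

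Late assays were noisier. The median SD within groups was 0.97 cycles for the 47 microRNAs with a mean Ct of 30 or later and 0.52 for the 457 earlier ones. Among the members it was 1.54 for miR-302b-3p, 1.42 for miR-302c-3p, 1.38 for miR-302d-3p and 1.10 for miR-367. It was 0.94 for miR-367-5p, 0.80 for miR-302c-5p, 0.77 for miR-302b-5p, 0.53 for miR-302a-3p and 0.39 for miR-302d-5p. The spread of the members did not simply follow their mean Ct. MiR-302c-3p, at a mean Ct of 29.53, belongs to the earlier class. MiR-302a-3p at 30.74 and miR-367-5p at 34 belong to the later class and lay below its median SD.

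The 3p strands of miR-302 carry the seed that the cluster is known for. MiR-302d-3p crossed at Ct 33.12, 35.04 and 30.10 in CD 1, CD 2 and CD 3, at 29.85, 29.25 and 31.35 in UT 1 to UT 3, at 29.92, 30.85 and 30.27 in UL 1 to UL 3, and at 30.19, 29.99 and 29.25 in WL 1 to WL 3. CD 1 and CD 2 were the 2 latest pools, and CD 3 lay inside the range of the 9 exposed pools.

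MiR-302c-3p crossed at 32, 33.30 and 28.45 in the CD pools, at 28.29, 27.95 and 29.42 in UT, at 30.49, 29.82 and 28.36 for UL, and at 29.12, 28.49 and 28.68 in WL. Again CD 1 and CD 2 were latest and CD 3 was among the earlier pools. MiR-302b-3p, near the end of the measurable range, crossed at 36.63 in CD 1 and 32.37 in CD 3, at 34.64 in UT 1 and 33.07 in UT 3, at 32.56, 33.04 and 31.85 for UL, and at 32.76, 33.54 and 31.59 in WL. It gave no value in CD 2 or UT 2, and CD 1 was its latest pool.

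MiR-302a-3p did not share this. It crossed at 30.01, 30.28 and 31.10 in CD, at 30.22, 31.52 and 30.58 in UT, at 31.01, 30.47 and 30.33 for UL, and at 31.14, 30.76 and 31.45 in WL. CD 1 was its earliest pool, and the groups overlapped.

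The 5p strands divided in the same way. MiR-302b-5p crossed at 33.74, 35.11 and 32.21 in CD, at 30.83, 30.84 and 31.80 in UT, at 32.04, 31.91 and 32.05 for UL, and at 31.68, 32.10 and 31.86 in WL. It was the only member for which every exposed pool crossed earlier than every CD pool, although CD 3 lay close to the latest of them.

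MiR-302c-5p crossed at 30.75, 31.28 and 28.99 in CD, at 28.51, 27.40 and 29.54 in UT, at 29.19, 28.97 and 28.59 for UL, and at 28.70, 28.50 and 29.54 in WL, so that CD 3 again lay among the exposed pools. MiR-302d-5p, the earliest member, crossed at 26.26, 25.77 and 25.18 in CD, at 25.16, 25.79 and 26.04 in UT, at 26.20, 26.18 and 25.61 for UL, and at 26.32, 25.89 and 26.24 in WL. Its 12 pools lay between 25.16 and 26.32, in UT 1 and WL 1, and the groups overlapped.

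MiR-367, the most downstream product, crossed at 32.67, 32.87 and 30.99 in CD, at 33.50 and 32.66 in UT 1 and UT 3, at 31.09, 30.95 and 31.15 for UL, and at 30.31, 31.84 and 33.65 in WL, and gave no value in UT 2. The 3 UL pools lay close together, while CD and WL were spread over more than a cycle. MiR-367-5p crossed at 36.06, 33.21 and 33.29 in CD, at 33.68, 33.12 and 34.09 in UT, at 33.87, 33.34 and 33.74 for UL, and at 34.03, 35.41 and 34.12 in WL. Its 2 latest pools were CD 1 and WL 2.

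**Figure D2:**
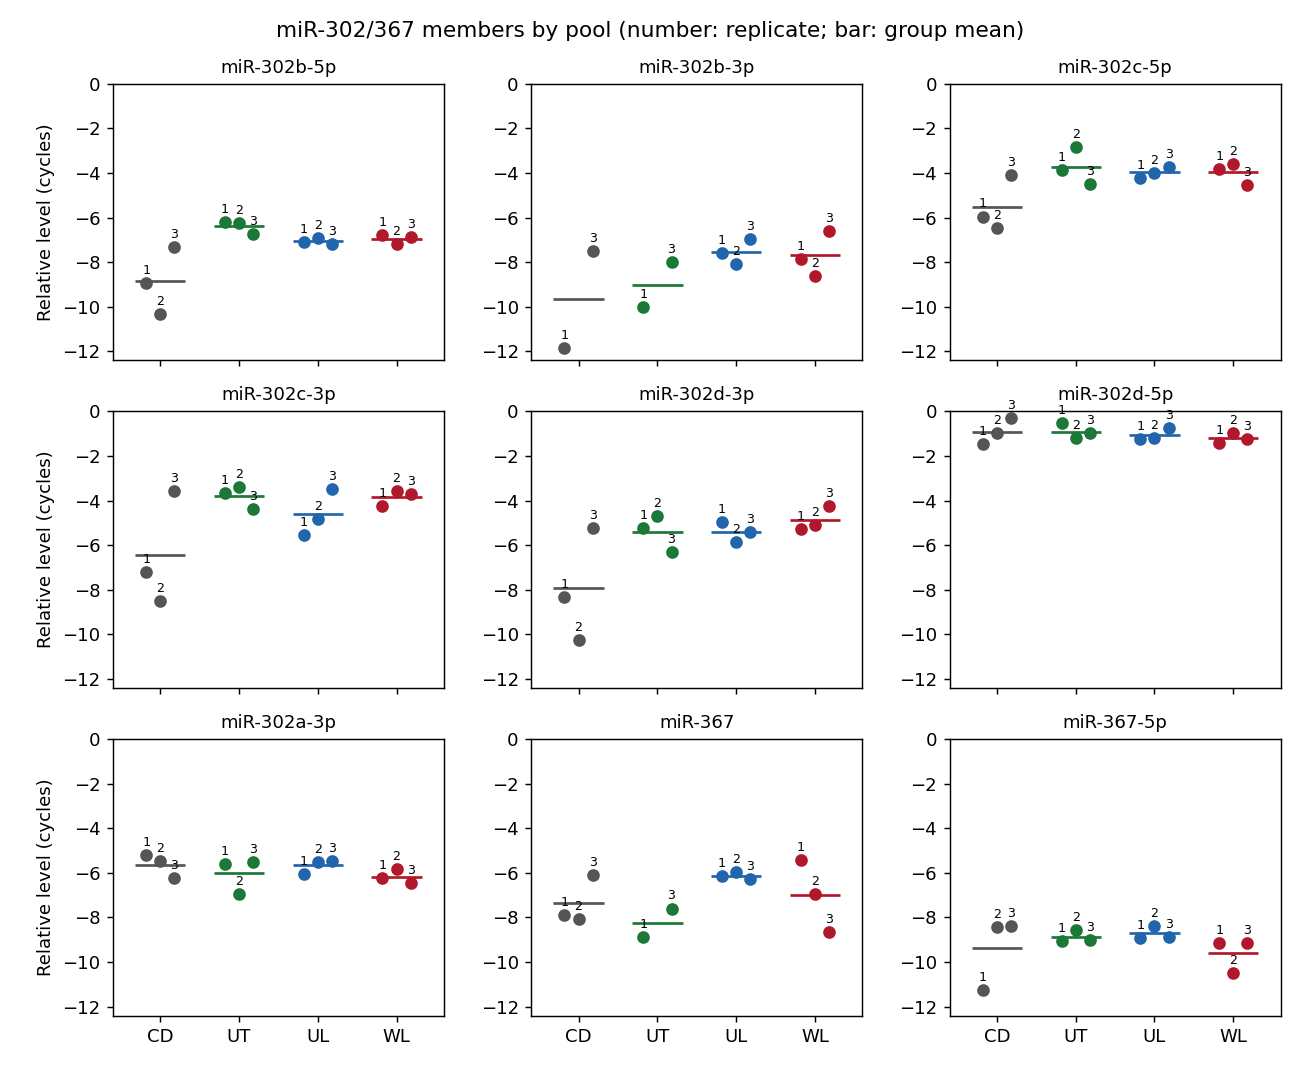
Each panel shows 1 member, with the relative level of every pool in cycles (y axis, set against the pool's average microRNA, so that an earlier Ct lies higher) by group (x axis); horizontal bars are group means. In miR-302b-5p, miR-302c-3p, miR-302c-5p and miR-302d-3p, CD 1 and CD 2 lie below the other pools and CD 3 lies with or near the 9 exposed pools.

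For the tests, each Ct was turned into a relative level, which is the average Ct of the 466 complete microRNAs in the same pool minus the Ct itself, so that 1 cycle is 1 unit of log2. Differences between groups were fitted with limma across all 504 microRNAs and adjusted by the Benjamini-Hochberg method over all of them.

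Exposure to the high-fat diet was addressed first, as the mean of UT, UL and WL against CD. These groups share the exposure in utero, so their mean cannot separate the periods. No member passed an adjusted p of 0.05 (0 of 9, against 0.595% of all microRNAs), and 4 of 9 had an unadjusted p under 0.05, against 6.15% of all. Of the 9 members, 7 had a log2 fold change above 0, against 43.3% of all, and the median was 1.57, against -0.06 for all microRNAs. The 4 were miR-302b-5p, miR-302d-3p, miR-302c-3p and miR-302c-5p.

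The relative level of miR-302b-5p averaged -8.86 ± 1.5 (SD, n = 3) over the CD pools, against -6.40 ± 0.29 for UT, -7.06 ± 0.12 for UL and -6.95 ± 0.21 for WL. Its log2 fold change for the exposed mean was 2.06 (SE 0.47, limma adjusted p = 0.0990), the smallest adjusted p of the cluster. It was also the only one of the 7 members measured in all pools whose exposed and CD pools did not overlap with the exposed higher, against 1.5% of the 466 complete microRNAs.

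MiR-302d-3p had the largest fold change of the cluster, 2.70 (SE 0.80, limma adjusted p = 0.259), from a level of -7.93 ± 2.54 over the CD pools and of -5.40 ± 0.82 for UT, -5.41 ± 0.46 for UL and -4.88 ± 0.55 for WL (SD, n = 3). MiR-302c-3p had 2.34 (SE 0.81, limma adjusted p = 0.411) and miR-302c-5p 1.62 (SE 0.49, limma adjusted p = 0.259). MiR-302b-3p had 1.57 (SE 1.01, limma adjusted p = 0.992, 2 CD and 2 UT pools). The SD in CD exceeded that of each exposed group for all 5 of these strands, and reached 3.08 for miR-302b-3p (n = 2) and 2.56 for miR-302c-3p (n = 3).

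The remaining 4 members had log2 fold changes near 0 for the exposed mean, with wide intervals. The exposed mean differed from CD by -0.32 for miR-302a-3p (95% interval -1.09 to 0.45), by -0.15 for miR-302d-5p (-0.78 to 0.48), by 0.23 for miR-367 (-1.21 to 1.67) and by 0.30 for miR-367-5p (-0.92 to 1.52), each with a limma adjusted p of 0.992. Only for miR-302d-5p do these bounds lie within 1 cycle on both sides. For miR-367 the exposed mean averages unlike groups: 1.22 in UL (SE 0.78), -0.88 in UT (SE 0.87, 2 pools) and 0.35 in WL (SE 0.78).

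The calls turn on the CD pools. Without CD 3, the exposed mean of miR-302b-5p was higher by 2.82 (limma adjusted p = 0.00274), miR-302c-3p by 3.77 and miR-302d-3p by 4.06 (0.0031 each) and miR-302c-5p by 2.32 (0.0219), all past the threshold. Without CD 2, the same values were 1.33, 1.30, 1.54 and 1.13, with limma adjusted p-values of 0.492 or more. Without CD 1, they were 2.01, 1.95, 2.50 and 1.40, with limma adjusted p-values of 0.728 or more. Without CD 1 and CD 2 together, an alternative chosen after seeing the data in which the lone CD 3 is assumed to vary like the other groups, the values were 0.52 for miR-302b-5p, 0.21 for miR-302c-5p, -0.015 for miR-302d-3p, -0.52 for miR-302c-3p and -0.60 for miR-302b-3p, with adjusted p-values of 1.00.

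Each exposure was also set against CD by itself, and the 3 contrasts share the CD pools. In WL, the whole-life group, 0 of 9 members passed (0.595% of all) and 4 of 9 had an unadjusted p under 0.05 (7.14%). The median log2 fold change was 1.53, against -0.06 for all microRNAs, and 6 of 9 were above 0, against 43.5%. The values were 3.05 for miR-302d-3p (SE 0.97, limma adjusted p = 0.313), 2.59 for miR-302c-3p (SE 1.00), 1.96 for miR-302b-3p, 1.91 for miR-302b-5p (SE 0.58, limma adjusted p = 0.307) and 1.53 for miR-302c-5p.

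In UL, exposed until weaning, 0 of 9 passed (0.595% of all) and 3 of 9 had an unadjusted p under 0.05 (2.78%). The median was 1.53, against -0.07, and 7 of 9 were above 0, against 43.7%. MiR-302d-3p had 2.52, miR-302b-3p 2.11, miR-302b-5p 1.80, miR-302c-3p 1.80 and miR-302c-5p 1.53, with limma adjusted p-values of 0.609 to 0.995 among the members.

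In UT, exposed in utero alone, 0 of 9 passed (1.39% of all) and 4 of 9 had an unadjusted p under 0.05 (10.1%). The median was 0.65, against -0.01, and 7 of 9 were above 0, against 48.8%. MiR-302b-5p had 2.46 (SE 0.58, limma adjusted p = 0.0641), miR-302c-3p 2.63 and miR-302d-3p 2.53 (limma adjusted p = 0.395 each), miR-302c-5p 1.79 (limma adjusted p = 0.280) and miR-302b-3p 0.65. Without CD 3, miR-302b-5p, miR-302c-3p and miR-302d-3p passed the threshold in all 3 contrasts. The WL values were then 2.68, 4.03 and 4.41, those of UL 2.56, 3.23 and 3.87, and those of UT 3.23, 4.06 and 3.89, with limma adjusted p-values from 0.00333 to 0.0324. MiR-302c-5p then passed in UT alone (2.49, limma adjusted p = 0.0362). Without CD 2, the WL values of miR-302b-5p, miR-302c-3p and miR-302d-3p were 1.19, 1.55 and 1.89. Those of UL were 1.07, 0.763 and 1.36, and those of UT 1.73, 1.59 and 1.37. Without CD 1, they were 1.87, 2.20 and 2.85 for WL, 1.75, 1.41 and 2.32 for UL, and 2.42, 2.24 and 2.33 for UT. When Ct was scaled to the reference RNA RNU-43, which put the median of all microRNAs in UT at 0.73 in place of -0.01, miR-302b-5p (3.20, limma adjusted p = 0.00529) and miR-302c-5p (2.53, 0.0355) passed in UT, as did miR-302b-5p in the exposed mean (2.43, 0.0146).

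**Figure D3:**
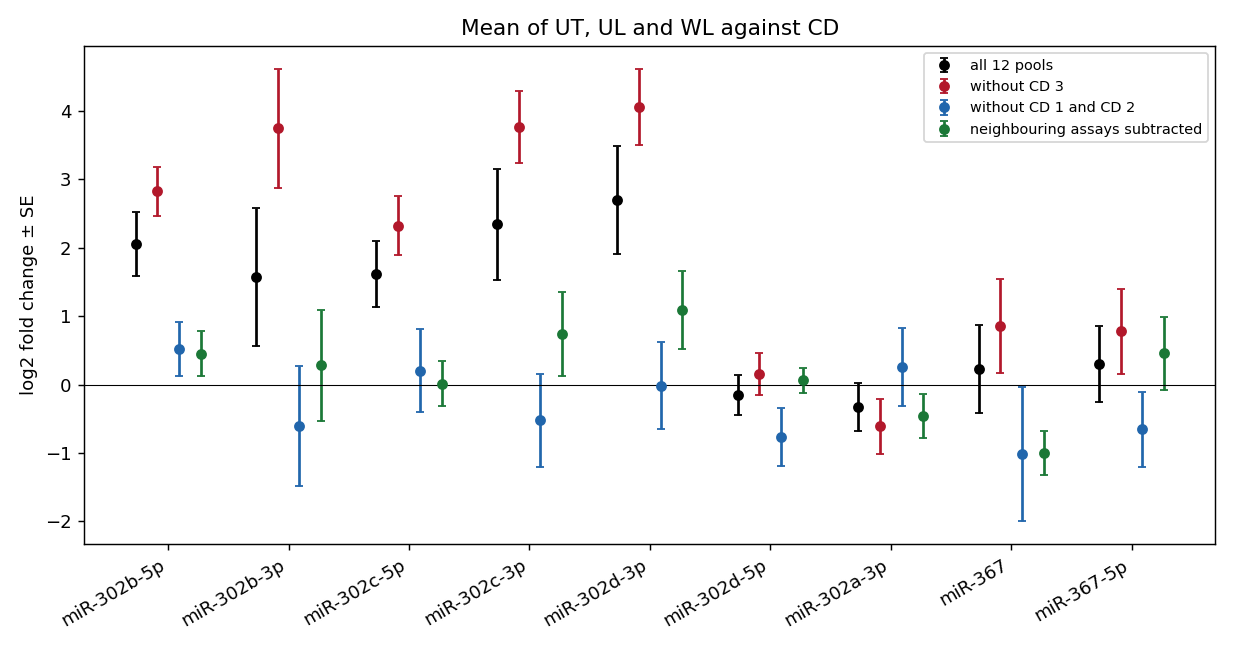
Points are log2 fold changes of the exposed mean against CD (y axis) for the 9 members (x axis), with the SE of the limma fit as bars, for all pools, without CD 3, without CD 1 and CD 2, and with neighbouring assays subtracted. With all pools, the values of miR-302b-5p, miR-302c-5p, miR-302c-3p and miR-302d-3p lie between 1.62 and 2.70, and without CD 1 and CD 2 they lie between -0.52 and 0.52.

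Between exposures, 0 of 9 members passed when UL was set against UT (0% of all microRNAs, limma) and 1 of 9 had an unadjusted p under 0.05 (7.94%). That was miR-367, which stood 2.11 cycles higher on the log2 scale in UL (SE 0.87, limma adjusted p = 0.601), from a level of -8.24 ± 0.90 (n = 2) in UT and -6.13 ± 0.15 (n = 3) in UL. For WL against UL, 0 of 9 passed (0%) and 0 of 9 had an unadjusted p under 0.05 (5.36%).

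The late values of CD 1 and CD 2 were then set against the other pools. Relative to the mean of the other 10 pools, miR-302d-3p lay at -3.10 in CD 1 and -5.02 in CD 2, miR-302c-3p at -3.17 and -4.47, miR-302b-5p at -2.09 and -3.46, and miR-302c-5p at -2.04 and -2.57. MiR-302b-3p lay at -3.92 in CD 1. The same differences were 0.77 and 0.50 for miR-302a-3p, -0.47 and 0.01 for miR-302d-5p, -0.99 and -1.19 for miR-367, and -2.27 and 0.58 for miR-367-5p. Assays for products of 1 primary RNA and, for miR-302d, for the strands of 1 hairpin thus gave different readings in these 2 pools.

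The 5 late members are those with consecutive accession numbers in the microRNA catalogue, as the deposited table gives them for its assays, and the assays beside them were late as well. In that order, 9 assays in a row were at least 1 cycle late in both CD 1 and CD 2, or in the one of these that gave a value. Besides the 5 members, these were both arms of miR-291b ahead of them and miR-376a-5p and miR-376b-5p behind them. MiR-376b-5p lay at -3.03 and -6.96, miR-376a-5p at -1.96 and -3.34, and miR-291b-3p at -1.06 and -3.73. MiR-291b-5p lay at -8.20 in CD 1 and gave no value in CD 2, CD 3, UT 1 or UT 2. MiR-291b-3p was late in CD 3 as well, at -1.645, so the miR-291b assays did not set CD 1 and CD 2 apart from CD 3.

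The next assays in the order, miR-467a-5p (-0.17 and -0.08) and miR-488-5p (0.21 and 0.03), lay near 0. MiR-367 stands 6 places ahead of miR-302b-5p, in a stretch where other assays were late too, not in CD 1 and CD 2 alone. MiR-494 lay at -3.20 and -12.14, and at -12.38 in CD 3. MiR-547 lay at -2.12 and -1.88, miR-503 at -3.84 and -0.69, and miR-20b-5p at -5.98 in CD 1. Of all 496 assays with an accession number, 16 met the same rule (3.23%), 13 of them with values in both pools, and the longest other run held 2 assays. Of the neighbours in the run, the miR-376 genes belong to the imprinted Dlk1-Dio3 cluster on another chromosome, and miR-291b belongs to the miR-290 to miR-295 stem cell cluster. The sources used here do not say where each assay stood on the PCR plates, and the part of assay position in the late values was not tested.

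**Figure D4:**
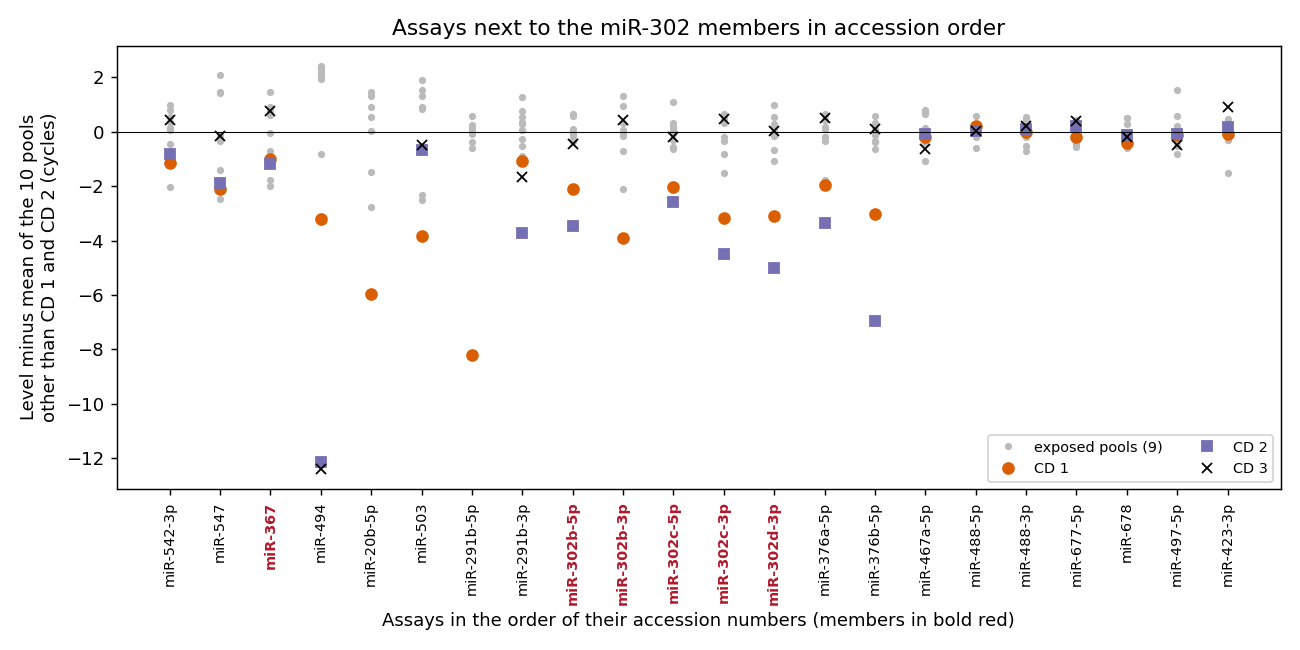
Points are the levels of CD 1, CD 2 and CD 3 (coloured or black) and of the 9 exposed pools (grey), each minus the mean of the 10 pools other than CD 1 and CD 2, which include CD 3, in cycles (y axis), for assays in the order of their accession numbers (x axis). CD 1 and CD 2 lie below -1 from miR-291b-3p to miR-376b-5p, members or not, wherever they gave a value, and return to near 0 at miR-467a-5p, while CD 3 lies within 0.50 of 0 from miR-302b-5p to miR-376b-5p.

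With the median deviation of the nearest assays that are not members, 5 on each side in this order, subtracted in each pool, the exposed mean differed from CD by 1.10 for miR-302d-3p, 0.74 for miR-302c-3p, 0.45 for miR-302b-5p, 0.28 for miR-302b-3p and 0.01 for miR-302c-5p, and none of the 9 passed the threshold. Each of the 5 was below its value without the subtraction. These 5 share the same neighbours, which include the late assays of miR-291b and miR-376. The lower values were thus built into the subtraction and are not 5 separate results.

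The 5 members moved together across pools mainly through CD 1 and CD 2. Their 10 pairs had Pearson's r of 0.54 to 0.92 with a median of 0.89 over 10 to 12 pools, which share the scaling of each pool. Without CD 1 and CD 2 the range was -0.65 to 0.44 and the median 0.20. The other 26 pairs of members had a median of 0.17, and of -0.16 without these pools. Among 459 other complete microRNAs, those most like the mean profile of the 7 complete members were miR-376b-5p (r = 0.91 over 12 pools), miR-376a-5p (0.84), miR-291b-3p (0.76), miR-351-3p (0.58) and miR-1224-3p (0.58). The first 3 are neighbours in the accession order, and without CD 1 and CD 2 the 5 values ranged from -0.23 to 0.34.

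Strands of 1 hairpin were also compared within pools. For miR-302d the 3p strand, which is known as the active one, crossed later than the 5p strand in 12 of 12 pools, with a median of 4.67 cycles. The difference was 6.86 in CD 1 and 9.27 in CD 2, and 3.01 to 5.31 over the exposed pools, with a median of 4.10. For miR-302b it crossed later in 8 of 10 pools, by a median of 1.11, and for miR-302c in 6 of 12, with a median of 0.21 over all pools and -0.01 over the exposed ones. For miR-367 the 3p strand crossed earlier in 11 of 11 pools, by a median difference of -2.39. Unequal amplification of the assays enters each of these differences.

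Other microRNAs with the members' seeds are shown because they can bind the same target sites.
miR-291a-3p: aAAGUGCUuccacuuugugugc
miR-294-3p: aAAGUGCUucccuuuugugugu
miR-295-3p: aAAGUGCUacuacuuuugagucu
miR-92a-3p: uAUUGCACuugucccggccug
miR-25-3p: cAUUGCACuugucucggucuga

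With AAGUGCU, miR-291a-3p had a mean Ct of 28.88, miR-294-3p of 26.40 and miR-295-3p of 30.61, all of the miR-290 to miR-295 cluster. With AUUGCAC, the broadly expressed miR-92a-3p had 20.48 and miR-25-3p 21.79, and miR-363-3p had 27.99 and miR-32-5p 28.89. In this tissue the AUUGCAC seed was thus measured at the earliest Ct in miR-92a-3p and at the latest in miR-367. None of these 7 passed the threshold in any contrast (limma), and their median log2 fold change for the exposed mean was 0.12.

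The miR-290 to miR-295 cluster had 10 assays with values. Of these, 1 was past the threshold in WL, in UL and in the exposed mean and 2 in UT, all higher. They were miR-291b-5p, which rests on a single CD pool, and in UT also miR-291b-3p, both within the run of late assays. For UT, miR-291b-5p had a value in UT 3 alone, so that contrast sets 1 pool against 1 pool. The cluster's median log2 fold change for the exposed mean was 0.11. In the miR-92 seed family 0 of 4 measured microRNAs passed in any contrast, and in a list of miR-17 and its relatives, miR-18a-5p among them, 0 of 7.

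Markers of other cells were read beside the members. The 10 other stem cell assays, those of the miR-290 to miR-295 cluster, had a median mean Ct of 28.01, and their median difference from the mean of the 10 pools other than CD 1 and CD 2, which include CD 3, was -0.41 for CD 1, 0.18 for CD 2 and 0.07 for CD 3, within or next to the exposed pools' range of -0.40 to 0.66. The testis and epididymis list (12 measured, median mean Ct 25.45) had -0.34, 0.46 and -0.27, and the fat list 0.14, 0.25 and 0.03. The epithelial list (5 of 6 measured, median mean Ct 21.75) had 1.46, -1.15 and 1.34, with an exposed range of -2.77 to 1.90. The neural pair had -0.48, -0.29 and -0.10, and the liver marker miR-122-5p -0.63, 0.70 and 0.71. None of these medians was late by 1 cycle or more in both CD 1 and CD 2. In bulk tissue, fewer cells of a type and less RNA per cell cannot be told apart.

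Fold changes that the authors deposited were compared with the pools. In the authors' deposited table the UT, UL and WL ratios to CD were 0.0962, 0.0911 and 0.111 for miR-302d-3p. These ratios fall with more template, because the normalized values behind them grow with Ct. For 9 of 9 members, the UT column of the authors' deposited table equalled the ratio recomputed from the UT pools (relative tolerance 0.001), and its UL and WL columns did so for 0 of 9. The UL column equalled UT 2, UT 3 and UL 1 over CD in 9 of 9, and the WL column UT 3, UL 1 and UL 2 over CD. For miR-367 the authors' deposited table gave 0.589 in WL, while the WL pools gave 1.07, and for miR-302c-3p it gave 0.191, while the WL pools gave 0.0892.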

How the data were processed

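Per the file headers, the authors deposited Ct values before normalization and normalized values as ratios (2 to the power of minus delta Ct). Subtracting the log2 of this ratio from Ct left 1 constant per pool (24.74 to 25.46), so these ratios grow with Ct. Ct values were used for every test. The sources used here do not give the PCR platform, the calling of Ct or the plate layout. RNA came from about 22 mg of fat, per the labels' protocols.

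After 1 repeated row was left out, the table held 504 microRNA assays and 2 reference RNAs. In all, 57 values in 39 assays were missing and stayed missing. MicroRNAs with Ct under 35 in at least 3 pools were kept, which removed 0. A single limma 3.58.1 model (lmFit and eBayes, two-sided, R 4.3.3) of the 4 groups was fitted over 12 pools with no block. Benjamini-Hochberg adjustment ran over 504 microRNAs with a threshold of 0.05. Precision is limited by the number of pools, with a median SE of 0.43 to 0.44 for a pair of groups and 0.35 for the exposed mean. The fit was tested on simulated data in which each microRNA had the same spread in every group and assays varied independently. The simulation thus did not cover the wider CD spread of the late members. Nor did it cover assays that are late together. All 9 members were named, as were microRNAs sharing a seed with them, list members past the threshold, the 5 most alike in profile and the neighbours in accession order, the last chosen after their values were seen. Members, lists and tests were chosen with earlier results of these data known. Lists of markers came from textbook knowledge. Alternatives covered the scaling, late and missing Ct, the filter, the samples in the fit, the variance model, a replicate block, neighbouring assays, the deposited ratios and left-out pools. Sequences are from RefSeq, with GRCm38.p6 coordinates.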

Additional observations from a re-analysis of the deposited data

How the results depend on the processing

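Recomputed under up to 27 settings, the 25 tested values of single members gave 668 alternatives. Of these, 612 kept their direction and their side of the threshold, 17 passed it newly, 0 lost it and 39 turned in direction. None of the 25 values passed the threshold as reported, so none was able to lose it. Some of the 612 repeat the reported estimate by construction. The filter on late Ct removed 0 microRNAs, and for the exposed mean the groups of the contrast are all groups. Leaving out a pool of a group outside the contrast left the estimate as it was, such as 1.91 for miR-302b-5p in WL. The 612 are therefore not a count of separate checks. The cause of the changes was not tested.

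Without CD 1 and CD 2 together, the exposed mean against CD was 0.26 for miR-302a-3p, -0.60 for miR-302b-3p, -0.52 for miR-302c-3p, -0.015 for miR-302d-3p, -1.02 for miR-367 and -0.66 for miR-367-5p. MiR-302b-3p then had -0.21 in WL, -0.065 in UL and -1.53 in UT, miR-302c-3p -0.27, -1.06 and -0.24, and miR-302d-3p -0.20 in UL and -0.18 in UT. With Ct later than 35 missing, miR-302b-3p had -0.22 in WL, -0.067 in UL, -1.52 in UT and -0.60 in the exposed mean, and miR-367-5p -0.47. With these set to 35, miR-302b-3p had -0.17 in UT and miR-367-5p -0.0048 in the exposed mean. With neighbouring assays subtracted, miR-302c-5p had -0.35 in WL and -0.082 in UL, miR-302b-3p -0.25 in UT, and the exposed mean was 0.066 for miR-302d-5p and -1.0 for miR-367. Scaled to RNU-43, it was 0.053 for miR-302a-3p and 0.22 for miR-302d-5p, and with missing values at Ct 40 it was -0.57 for miR-367.

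With single pools left out, miR-302b-3p ranged from -0.21 to 4.14 in WL, -0.065 to 4.29 in UL, -1.53 to 2.82 in UT and -0.60 to 3.75 in the exposed mean. The exposed mean ranged from -0.43 to 0.15 for miR-302d-5p, -0.13 to 0.85 for miR-367 and -0.65 to 0.78 for miR-367-5p.

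The number of microRNAs past the threshold was 3 in WL, 3 in UL, 7 in UT, 3 in the exposed mean and 0 in both contrasts between exposures. With single pools left out it ranged from 2 to 6 in WL, 2 to 6 in UL, 1 to 10 in UT, 1 to 7 in the exposed mean, 0 to 8 in UL against UT and 0 to 1 in WL against UL. Scaled to RNU-43 it was 5 in UL, 12 in UT, 6 in the exposed mean and 4 in UL against UT, where raw Ct gave 2. In WL, UL and the exposed mean it was 0 with Ct later than 35 missing or with complete microRNAs only, and 1 with missing values at Ct 40. Complete microRNAs gave 1 in UT and missing values at Ct 40 gave 2. Late Ct set to 35 gave 1 in UL. Fitting only the groups of the contrast gave 1 in WL and 5 in UL against UT. In UT it was 1 with neighbouring assays subtracted and 2 without CD 1 and CD 2.

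The replicate numbers of the labels did not pair the pools: deviations of same-numbered pools correlated at -0.27 to 0.26, with 7 of 18 pairs over 0.1. With the numbers as a replicate block the count was 4 in UT and 1 in UL against UT, and the block changed the call of 0 members. Late Ct, 3 pools a group and a lone value in some groups limit the precision.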
